A study of Homo sapiens with 6 samples.

Results

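The heterochromatin and repeat silencing genes described here are 40 human genes whose products write, read, erase or assemble repressive chromatin. They were taken by name and without a cut on their values, but earlier results of these data were known at the time. In all, 42 symbols were listed, 2 of which (SUV420H1 and SUV420H2) are older names of KMT5B and KMT5C. All 40 genes had a row in the table of 53719 gene rows, and 39 had enough counts to be among the 19721 genes tested. The cells were H9, an established human embryonic stem cell line, grown in RSeT, a commercial medium for a naive-like pluripotent state. Both groups received a gapmer, an antisense oligonucleotide whose central DNA stretch leads RNase H to cleave a paired RNA, and RNA was taken 48 h later. In the knockdown group (3 libraries, a, b and c, titled Sense3 in the labels) the gapmer was aimed at ALR, the RNA made from the alpha satellite repeats of centromeres. The control group (3 libraries, a, b and c) received a control gapmer. The labels do not say whether the letters stand for separate cultures, so the p-values measure only the spread between these libraries, which may be technical. The level of ALR RNA itself was not analysed here. Below, 3 values given in a row are those of libraries a, b and c, in that order.

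Constitutive heterochromatin covers satellite repeats, retroelements and silent rRNA gene copies. Its main mark is methylation of lysine 9 on histone H3 (H3K9), laid down by SUV39H1, SUV39H2, SETDB1 and related enzymes and bound by the HP1 proteins, which recruit further silencing enzymes. At retroelements, TRIM28 is brought to DNA by KRAB zinc finger proteins and recruits SETDB1, and the HUSH complex spreads and keeps the mark. Polycomb repressive complex 2 (PRC2) methylates lysine 27 of histone H3 and silences developmental genes in embryonic stem cells.

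Total counts were 25087629 to 33698831 in the knockdown and 28834926 to 36576752 in the control libraries. Knockdown library a stood apart, with counts in 29678 rows against 25898 to 26788 in the other 5. Without it, JARID2 was at a log2 fold change (knockdown minus control) of -0.11, CHAF1A at 0.15 and PPHLN1 at -0.03, against -0.19, 0.10 and -0.05 with all libraries, and MORC2, CBX3 and CDCA7 changed sign. The pluripotency genes LIN28A, DNMT3B, L1TD1 and NANOG had group means of 181 to 2056 CPM. CPM are counts per 1000000 counts of a library, scaled by TMM. Naive-state genes differed widely in counts. KLF17 had 1 to 10 counts a library and ARGFX had 9 to 30. DPPA5, DNMT3L, SUSD2 and KLF5 had 23 to 218 counts a library. KLF4 had 423 to 656, DPPA3 had 467 to 710 and TFCP2L1 had 680 to 1073. POU5F1 was at 133 ± 16.9 CPM in knockdown and 99.8 ± 13.3 CPM in control libraries (edgeR adjusted p = 0.0948). Summed over the 10 pluripotency genes, and per 1000000 of the unscaled total count here and in later sums, the level was 6757 to 7406 CPM in knockdown and 6594 to 6711 CPM in control libraries, and its part in the results below was not tested. Summed over 9 naive-state genes, the level was 73.9 to 80.8 CPM in knockdown and 72.2 to 78.4 CPM in control libraries. Of the 8 tested naive-state genes, 4 had a log2 fold change above 0 and 4 below, with a median of 0.031. DNMT3L was at 1.41 ± 0.051 CPM in knockdown and 2.33 ± 0.70 CPM in control libraries (TMM-scaled, edgeR adjusted p = 0.258). Sums for primed-state genes were 355 to 370 CPM in knockdown and 375 to 395 CPM in control libraries. Fibroblast genes summed to 89.0 to 96.65 CPM in knockdown and 90.4 to 103 CPM in control libraries. Among the 4 tested fibroblast genes, 3 had a log2 fold change above 0 and 1 below, with a median of 0.518. PDGFRB (1.149) and POSTN (0.943) were the highest, at 15 to 49 and 16 to 38 counts a library. COL1A2 was lower (-0.199), and none of the 4 had an edgeR adjusted p under 0.05. Of the 6 tested primed-state genes, 4 had a log2 fold change above 0, with a median of 0.014. The primed-state gene FGF2 was lower, at 112 ± 17.8 CPM in knockdown and 146.5 ± 8.47 CPM in control libraries (TMM-scaled). Germ layer genes summed to 17.3 to 18.0 and 14.3 to 15.95 CPM, and trophectoderm and amnion genes to 2.19 to 2.75 and 2.02 to 2.74 CPM, and the part of these in the results was not tested. Of the 4 tested germ layer genes, 2 had a log2 fold change above 0 and 2 below. MIXL1 was at 13.06 ± 0.888 CPM in knockdown and 11.3 ± 1.19 CPM in control libraries (TMM-scaled). The pluripotency gene SOX2 was listed at 0 everywhere, and so was the member ASF1A. SOX2 lies inside the noncoding gene SOX2-OT, and ASF1A inside MCM9, in the GENCODE 29 annotation. Of the protein-coding genes that lie wholly inside another protein-coding gene, 472 of 500 (94.4%) were at 0 in all libraries when the outer gene was on the opposite strand, and 231 of 255 (90.6%) when one was on the same strand. Among the 13655 genes that overlap no other, the share was 6.74%. The zeros of ASF1A are therefore not read as absence of its RNA. Where a member overlaps another gene, its count may lack the shared stretch. Besides the overlaps named below, PPHLN1 overlaps ZCRB1 and PRICKLE1, SUV39H2 overlaps DCLRE1C, and CHAF1A overlaps UBXN6. DAXX overlaps AL662820.1, and KDM4A overlaps AL451062.3. Overlaps of members with genes that are not protein-coding are not listed.

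None of the 39 tested members passed a Benjamini-Hochberg adjusted p of 0.05 in edgeR's quasi-likelihood test (0 of 39, against 0.786% of all tested genes). At an unadjusted p under 0.05 there were 5 members, or 12.8%, close to the background of 14.3%. Of these, 2 were higher in knockdown (CBX1 and BAZ2A, background 6.68%) and 3 were lower (KDM4C, SETDB2 and ATRX, background 7.57%). The median log2 fold change (log2FC, knockdown minus control) was -0.015 over the members and 0.02 over all tested genes. In all, 18 members had a log2FC above 0, or 46.2% against 54.4% of all genes. With library size alone as the scaling 22 did so, and the median was 0.012 over the members and 0.047 over all tested genes. DESeq2's Wald test called 2 members, KDM4C and BAZ2A, where it called 3.9% of the genes it adjusted.

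The measurement was precise for most members. The log2FC had a median standard error (SE) of 0.08, and 38 of the 39 had at least 100 counts in every library. The 95% interval of the fold change lay within 1.5-fold (0.585 on the log2 scale) on both sides in 37 of 39 members (94.9%), against 63.2% of all genes. The exceptions were KDM4C, whose interval ran from -0.60 to -0.22, and SUV39H1, which had 25 to 42 counts a library and an interval from -0.33 to 1.09. For 35 of the 39 the estimated log2 change was under 0.2 in size. The values of the 2 groups did not overlap in 13 members (33.3%, against 18.9% of all genes), 5 of them higher and 8 lower in knockdown.

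**Figure D1:**
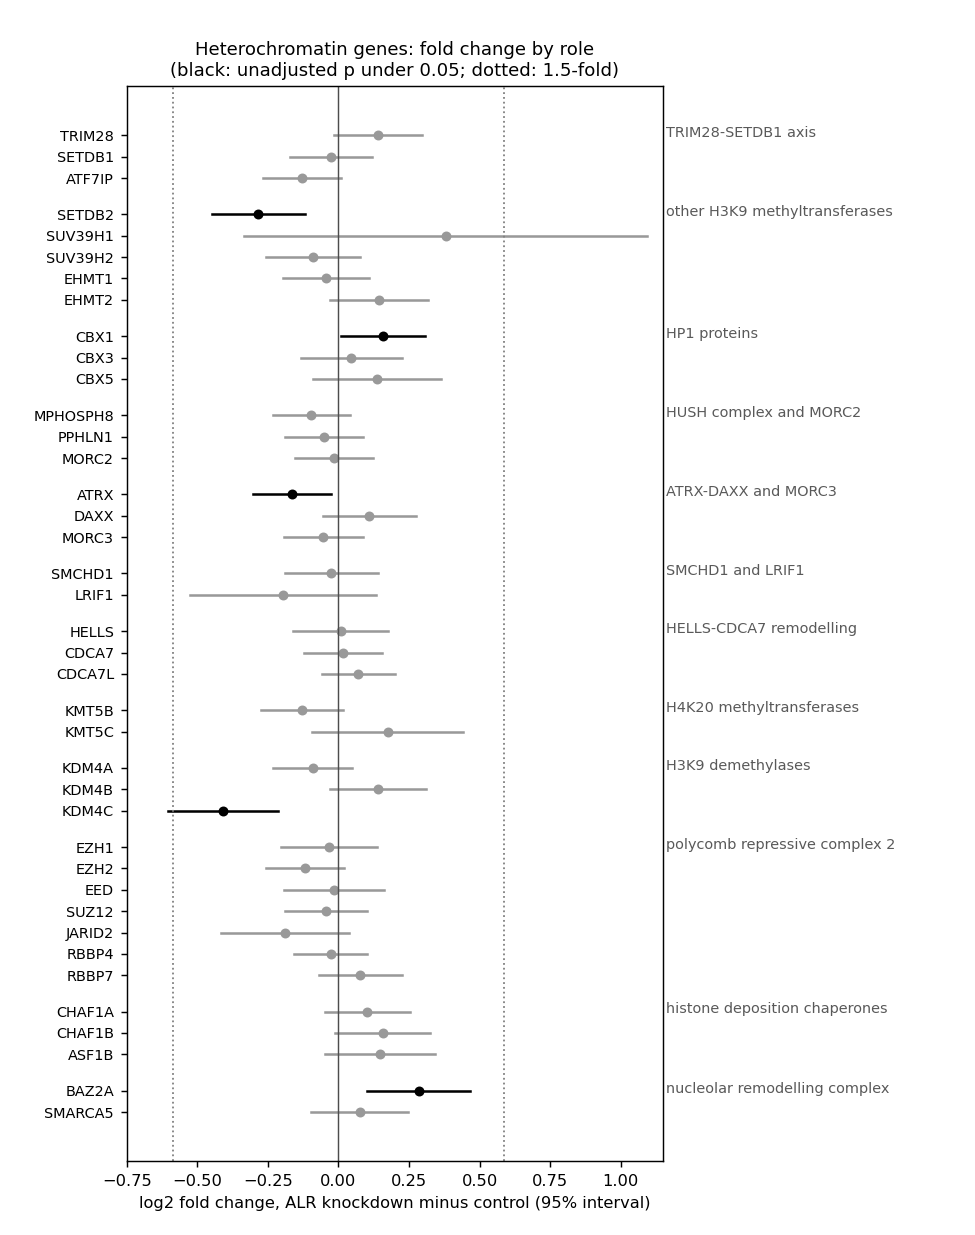
Log2 fold change (ALR knockdown minus control, x axis) of the 39 tested members, grouped by role, with 95% intervals from edgeR's fit over 3 libraries a group. Black marks the 5 members at an unadjusted p under 0.05, the dotted lines mark a 1.5-fold change, and 37 of the 39 intervals lie between those lines.

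Among the writers of H3K9 methylation, SETDB2, a relative of SETDB1, had the smallest p. SETDB2 (ENSG00000136169.16, chromosome 13, 49444374 to 49495003 on GRCh38) had 20.02, 20.4 and 19.2 CPM in knockdown. Under the control gapmer it had 23.4, 24.6 and 24.7 CPM. Every knockdown library lay below every control library, and the spread within each group was small. The means were 19.9 ± 0.613 and 24.2 ± 0.705 CPM (SD, n = 3 each), with log2FC at -0.28 ± 0.08 (SE, edgeR adjusted p = 0.114). It did not pass in any of the 14 alternative settings, where the adjusted p was 0.052 to 0.419.

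None of the 3 genes of the TRIM28 and SETDB1 axis passed the threshold. TRIM28, the corepressor that recruits SETDB1 to retroelements, had 619, 697 and 620 CPM in knockdown and 592, 603 and 562 CPM in control. The groups did not overlap, although knockdown libraries a and c were close to control library b, and the log2FC was 0.14 ± 0.07 (SE, edgeR adjusted p = 0.399). It was 0.08 without knockdown library b and 0.07 with the trend on gene span removed. SETDB1, the methyltransferase itself, was at 52.0 ± 1.147 CPM in knockdown and 52.9 ± 2.84 CPM in control libraries (log2FC -0.03, 95% interval -0.17 to 0.12, above 0 with library size alone and without control library b). ATF7IP, which stabilises SETDB1, was at 255 ± 10.4 against 279 ± 5.68 CPM, with groups that did not overlap (log2FC -0.13, edgeR adjusted p = 0.379). SETDB1 overlaps CERS2 in the annotation.

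The remaining H3K9 methyltransferases were EHMT1 and EHMT2, which form the G9a/GLP dimethylating enzyme, and the SUV39H pair, which acts at pericentromeric repeats. EHMT2 had a log2FC of 0.14 and EHMT1 one of -0.04 (edgeR adjusted p = 0.448 and 0.820). SUV39H2 was at 25.4 ± 0.358 CPM in knockdown and 27.02 ± 1.78 CPM in control libraries. Its groups did not overlap, at a log2FC of -0.09 (edgeR adjusted p = 0.640). SUV39H1 was measured poorly: 25, 42 and 40 counts in knockdown, and 30, 25 and 36 counts in control. These counts overlap, and a change of 2-fold upward lies inside its interval.

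Among the erasers, the KDM4 demethylases that remove H3K9 trimethylation, KDM4C had the smallest p of any member with all libraries. The thinly counted SUV39H1 lay further from 0 in 6 of the 14 alternatives. KDM4C (ENSG00000107077.18, chromosome 9, 6720863 to 7175648) had 126, 127 and 158 CPM in knockdown, and 192, 171 and 183 CPM in control. All knockdown libraries were below all controls, with knockdown library c the nearest to them. The means were 137 ± 18.1 and 182 ± 10.4 CPM (SD, n = 3 each), which is 24.7% lower, or a log2FC of -0.41 ± 0.09 (SE, edgeR adjusted p = 0.0626). The same direction was seen in all 14 alternatives (-0.54 to -0.33), and the threshold was passed in 4 of them. These were DESeq2's Wald test, the edgeR fit with no low-count filter (2 members called, KDM4C and BAZ2A, against 3.29% of genes), the fit with the replicate letter as a block (KDM4C the single member called, edgeR adjusted p = 0.0147, against 1.99% of genes) and the fit without knockdown library c (edgeR adjusted p = 0.000932). Over the 14 alternatives the adjusted p ran from 1.83e-05 to 0.336.

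Its paralogs had smaller differences. KDM4A was at 118 ± 4.07 CPM in knockdown and 126 ± 5.54 CPM in control libraries (log2FC -0.09, edgeR adjusted p = 0.552). KDM4B was at 84.8 ± 6.39 against 77.0 ± 5.87 CPM (log2FC 0.14, edgeR adjusted p = 0.452). The log2 ratio of KDM4C to KDM4B counts, which does not depend on library scaling, was 0.70, 0.50 and 0.86 in knockdown and 1.29, 1.28 and 1.157 in control. The ratio was lower in every knockdown library than in every control, by 0.56 on average (exact permutation p = 0.10, two-sided, the smallest that 3 against 3 libraries can give, and 0.133 adjusted over 4 ratios). This pair was chosen after its values were seen.

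**Figure D2:**
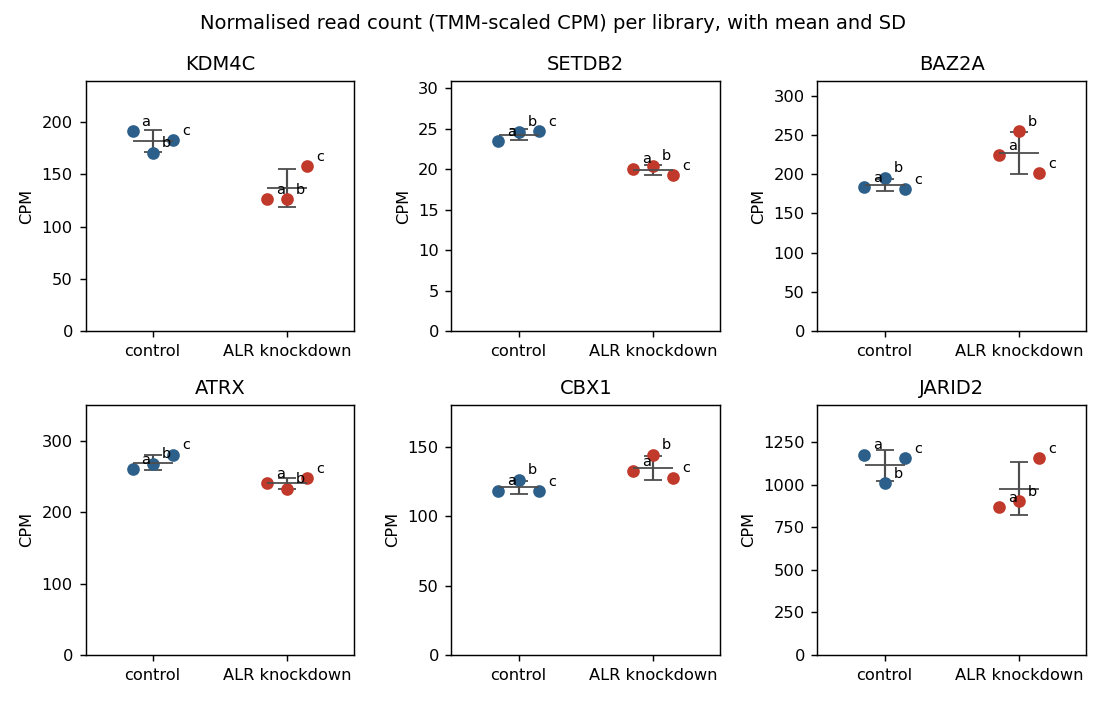
TMM-scaled CPM (y axis, from 0) in each library for the 5 members at an unadjusted p under 0.05 and for JARID2, with bars for the mean and SD of 3 libraries a group and letters for the replicate. In KDM4C and JARID2, knockdown library c sits nearest to the control libraries or among them, while SETDB2 shows 3 knockdown libraries between 19.2 and 20.4 CPM against controls of at least 23.4 CPM.

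The 3 HP1 genes encode the readers that bind methylated H3K9. CBX1 (HP1 beta; ENSG00000108468.14, chromosome 17, 48070052 to 48101521) had 133, 144 and 128 CPM in knockdown and 118, 126 and 118 CPM in control. The groups did not overlap, although knockdown library c was close to control library b. The log2FC was 0.16 ± 0.07 (SE, edgeR adjusted p = 0.321, and 0.121 to 0.651 over the alternatives), and it was 0.10 without knockdown library b. CBX5 (HP1 alpha) had a log2FC of 0.14, and its values overlapped, with 435 to 579 CPM in knockdown and 416 to 505 CPM in control libraries. CBX3 (HP1 gamma), which overlaps HNRNPA2B1 in the annotation, was at 201 ± 19.2 against 195 ± 14.4 CPM (log2FC 0.05), and its sign turned in the fits without knockdown library a and without control library a and with the span trend removed.

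The HUSH complex keeps retroelements silent and works with MORC2, an ATPase that compacts chromatin. PPHLN1 (periphilin, a HUSH subunit) had 108, 111 and 116 CPM in knockdown and 112, 120 and 115 CPM in control. These values overlapped, with a log2FC of -0.05 ± 0.06 (SE, edgeR adjusted p = 0.758), which ran from -0.10 to -0.015 over the alternatives. MPHOSPH8, the HUSH subunit with a chromodomain, was at 61.7 ± 1.33 against 65.9 ± 2.58 CPM (log2FC -0.10, edgeR adjusted p = 0.534), and its groups did not overlap. MORC2 was at 105 ± 3.84 against 106 ± 4.11 CPM, a log2FC of -0.01 with a 95% interval of -0.15 to 0.12, whose sign turned with library size alone, with the upper quartile, without knockdown library a and without control library c.

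ATRX and DAXX form a chaperone that deposits histone variant H3.3 at telomeres, pericentromeric repeats and retroelements. ATRX (ENSG00000085224.22, chromosome X, 77504878 to 77786233), the ATPase of the pair, had 241, 233 and 248 CPM in knockdown and 260, 268 and 281 CPM in control. All knockdown libraries lay below all controls. The log2FC was -0.16 ± 0.06 (SE, edgeR adjusted p = 0.271), and the threshold was passed in 1 of 14 alternatives, the fit without knockdown library c (-0.21, edgeR adjusted p = 0.0497). DAXX, the H3.3-binding partner, had a log2FC of 0.11, with overlapping groups (edgeR adjusted p = 0.549). The log2 ratio of ATRX to DAXX counts, also chosen after its values were seen, was 1.92, 1.72 and 2.05 in knockdown and 2.06, 2.136 and 2.30 in control. The groups of ratios did not overlap, at a mean difference of -0.27 (exact permutation p = 0.10, two-sided, and 0.133 adjusted over 4 ratios). MORC3, an ATPase of PML nuclear bodies, had a log2FC of -0.05 (edgeR adjusted p = 0.755), and it overlaps CHAF1B in the annotation.

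SMCHD1 compacts the inactive X chromosome and some repeat arrays, and LRIF1 links it to HP1. SMCHD1 had 25.5, 24.5 and 24.7 CPM in knockdown and 24.7, 24.3 and 26.9 CPM in control. The values overlapped almost fully, at a log2FC of -0.02 ± 0.08 (SE, edgeR adjusted p = 0.914), whose sign depended on the scaling (0.002 with library size alone) and also turned without control library c (0.02). LRIF1 had 142 to 155 counts in knockdown and 178 to 194 counts in control libraries, and as CPM these overlapped (log2FC -0.20 ± 0.15, SE; edgeR adjusted p = 0.594).

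HELLS is a remodeller that helps to methylate DNA at satellites, and CDCA7 is its zinc finger activator. Both are known as targets of the E2F cell cycle factors. The bases upstream of their start sites are shown because both hold an E2F motif. They are from RefSeq (GRCh38.p14, plus strand), 120 bases each, with motif matches in capitals.
HELLS (chr10:94545668-94545787): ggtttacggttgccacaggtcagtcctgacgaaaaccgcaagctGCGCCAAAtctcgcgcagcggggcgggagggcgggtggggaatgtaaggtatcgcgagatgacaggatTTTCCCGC
CDCA7 (chr2:173354700-173354819): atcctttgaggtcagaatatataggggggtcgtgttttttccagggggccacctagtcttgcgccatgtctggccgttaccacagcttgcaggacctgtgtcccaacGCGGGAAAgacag
The letters searched on both strands, in the 250 bases before the start site, were TTTCCCGC, TTTCGCGC, TTTGCCGC and TTTGGCGC. In HELLS the matches begin 76 and 8 bases before the RefSeq start site, and the printed stretch ends at that site. In CDCA7 the match begins 65 bases before the RefSeq start site, and the printed stretch stops 52 bases short of that site, where an annotated exon begins. The motif occurred in 4 of the 36 members with a promoter entry (HELLS, CDCA7, EZH1 and SUZ12), and in 2.79% of all 27305 promoters of that table. A match is a description of the letters and not of binding.

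HELLS had 231, 240 and 252 CPM in knockdown and 214, 259 and 246 CPM in control. The knockdown values lay inside the range of the controls, at a log2FC of 0.01 ± 0.08 (SE, edgeR adjusted p = 0.977). The sign of this value turned in the fits without knockdown library c (-0.04) and without control library a (-0.06). CDCA7 was at 109 ± 4.81 against 108 ± 3.55 CPM, a log2FC of 0.02 with a 95% interval of -0.12 to 0.16, and its sign turned in 4 alternatives. CDCA7L, its paralog, was at 194 ± 3.80 against 185 ± 1.95 CPM, with groups that did not overlap (log2FC 0.07, edgeR adjusted p = 0.640). HELLS overlaps TBC1D12 and CDCA7L overlaps DNAH11 in the annotation.

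KMT5B and KMT5C methylate lysine 20 of histone H4, a mark of pericentromeric heterochromatin. KMT5B had 83.3, 88.5 and 86.1 CPM in knockdown and 88.9, 93.0 and 100.2 CPM in control. The groups did not overlap, although knockdown library b came close to control library a, at a log2FC of -0.13 ± 0.07 (SE, edgeR adjusted p = 0.406). It was -0.08 without control library c. KMT5C, with 203 to 300 counts a library, had a log2FC of 0.17 ± 0.12 (SE, edgeR adjusted p = 0.554), and its values overlapped.

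Of the 7 PRC2 genes, 6 had a log2FC below 0, although EED was above 0 with library size alone or the upper quartile as the scaling and without control library b or c, and EZH1 without control library a. The median was -0.03, and 0 passed the threshold. JARID2, a cofactor that targets PRC2 in stem cells, had 870, 904 and 1157 CPM in knockdown and 1177, 1010 and 1156 CPM in control. Knockdown libraries a and b lay below every control, whereas library c lay among them. The log2FC was -0.19 ± 0.10 (SE, edgeR adjusted p = 0.443). Without knockdown library c it was -0.35 and passed the threshold (edgeR adjusted p = 0.0127), the single alternative of 14 in which it did. Without knockdown library a it was -0.11 (edgeR adjusted p = 0.704), and without knockdown library b it was -0.14 (edgeR adjusted p = 0.693).

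The catalytic subunits of PRC2 are EZH2, which dominates in dividing cells, and EZH1. EZH2 had 121, 122 and 130 CPM in knockdown and 133, 141 and 132 CPM in control. The groups did not overlap, although knockdown library c came close to control library c (log2FC -0.12 ± 0.06, SE; edgeR adjusted p = 0.422). EZH1 had 24.6, 24.5 and 26.9 CPM in knockdown and 27.5, 25.1 and 25.2 CPM in control, which overlapped (log2FC -0.03, edgeR adjusted p = 0.883; 0.02 without control library a). The log2 ratio of EZH1 to EZH2 counts was -2.29, -2.32 and -2.27 in knockdown and -2.27, -2.49 and -2.38 in control. The ranges overlapped, with a mean difference of 0.09 (exact permutation p = 0.40, two-sided, and 0.40 adjusted over 4 ratios), which was 0.14 if control library a was left out and 0.03 without control library b. EED and SUZ12, the core scaffold subunits, had log2FC values of -0.015 and -0.04. RBBP4 and RBBP7, histone-binding subunits that PRC2 shares with other complexes, had values of -0.03 and 0.08. RBBP4 overlaps SYNC and RBBP7 overlaps TXLNG in the annotation.

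The histone chaperones CHAF1A and CHAF1B (subunits of CAF-1, which deposits histones behind the replication fork) and ASF1B (which hands histones to it) had log2FC values of 0.10, 0.16 and 0.15. CHAF1A had 186, 212 and 206 CPM in knockdown and 195, 182 and 185 CPM in control. Knockdown library a lay among the controls, and the other 2 lay above them (edgeR adjusted p = 0.544). The value of 0.10 ran from 0.06 without knockdown library b or c to 0.15 without knockdown library a. CHAF1B was at 34.9 ± 1.53 against 31.3 ± 2.35 CPM, with groups that did not overlap (edgeR adjusted p = 0.387), and ASF1B was at 29.4 ± 0.692 against 26.6 ± 3.22 CPM, with groups that did (edgeR adjusted p = 0.493). Of 18 genes of cell proliferation, 17 had a log2FC above 0, with a median of 0.10 and 0 past the threshold. Their summed level was 3474 to 3902 CPM in knockdown and 3272 to 3436 CPM in control libraries. Their part in the chaperone values was not tested.

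BAZ2A (TIP5) and SMARCA5 (SNF2H) form the nucleolar remodelling complex, which silences rRNA gene copies. BAZ2A (ENSG00000076108.11, chromosome 12, 56595596 to 56636816) had 224, 255 and 201 CPM in knockdown and 183, 195 and 181 CPM in control. All knockdown libraries were above all controls, library b by the most and library c by the least. The means were 227 ± 26.8 and 186 ± 7.73 CPM (SD, n = 3 each), which is 21.8% higher, or a log2FC of 0.28 ± 0.08 (SE, edgeR adjusted p = 0.153). It passed the threshold in 3 of 14 alternatives: DESeq2's Wald test, the edgeR fit with no low-count filter and the fit without knockdown library c (edgeR adjusted p = 0.00813). Without knockdown library b the value was 0.19, and over the 14 alternatives the adjusted p ran from 0.00813 to 0.496. BAZ2A overlaps RBMS2 in the annotation.

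SMARCA5, the ATPase of the complex, which serves other remodellers too, had 436, 442 and 366 CPM in knockdown and 378, 401 and 402 CPM in control. Knockdown library c lay below all controls and the other 2 above them, at a log2FC of 0.08 (edgeR adjusted p = 0.716). The log2 ratio of BAZ2A to SMARCA5 counts was -0.96, -0.80 and -0.86 in knockdown and -1.05, -1.04 and -1.15 in control. This ratio, chosen after its values were seen, was higher in every knockdown library, by 0.21 on average (exact permutation p = 0.10, two-sided, and 0.133 adjusted over 4 ratios).

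**Figure D3:**
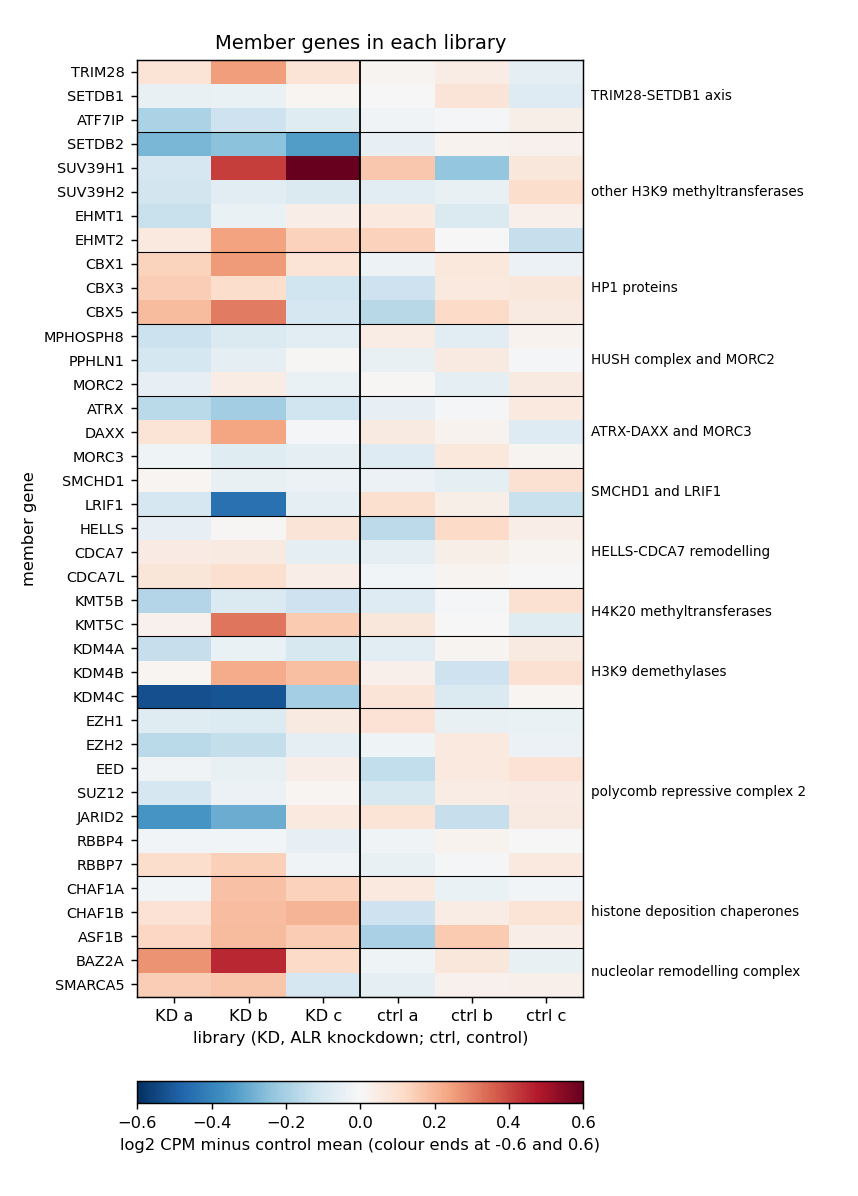
Log2 CPM of the 39 tested members (rows, grouped by role) in each of the 6 libraries (columns), relative to the mean of the 3 control libraries and shown by colour from -0.6 to 0.6. The rows of KDM4C and SETDB2 are blue in all 3 knockdown libraries. Among those 3 libraries, the row of JARID2 is blue in a and b only.

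Among the fits that left out 1 library, the one without knockdown library c called the most members. In it, 4 members passed the threshold (KDM4C, BAZ2A, JARID2 and ATRX), where 6.4% of all genes did, and 12 of 39 had an unadjusted p under 0.05 (against 19.3% of all genes). Without knockdown library a, which stood apart in the number of rows with counts, 0 members passed, and KDM4C, BAZ2A and ATRX had log2FC values of -0.36, 0.29 and -0.17. At an unadjusted p under 0.05 there were 3 members without knockdown library b (against 11% of all genes) and 8 with library size alone (against 15.1%). The median deviation of the members from their mean over all libraries was -0.04, 0.00 and 0.005 in knockdown, and -0.02, -0.003 and 0.02 in control.

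Gene span, the distance from a gene's first to last base, moved with the fold change. KDM4C (454.8 kb), ATRX (281.4 kb) and JARID2 (275.7 kb) have the widest spans among the members. Of the 9 members wider than 100 kb, 7 had a log2FC below 0, compared with 14 of the other 30. The like was seen over all genes with an annotated span, where 59.0% of 3446 genes wider than 100 kb were lower in knockdown and 41.1% of the other 12447. HELLS, above 0 with all libraries, is among the 9 by a GENCODE span of 112.5 kb that begins at 94501434. Its RefSeq start site, used for the bases shown above, lies further in, just after 94545787. Spearman's rho between span and log2FC was -0.58 across the 39 members and -0.17 across 15893 genes. These are descriptions across genes of the same libraries, which are not independent replicates. With each library's trend on span removed, KDM4C was at -0.33 (edgeR adjusted p = 0.133), ATRX at -0.11, JARID2 at -0.14, BAZ2A at 0.25 and SETDB2 at -0.32 (edgeR adjusted p = 0.0520). Under that setting 3 members had an unadjusted p under 0.05, where 14% of all genes did.

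**Figure D4:**
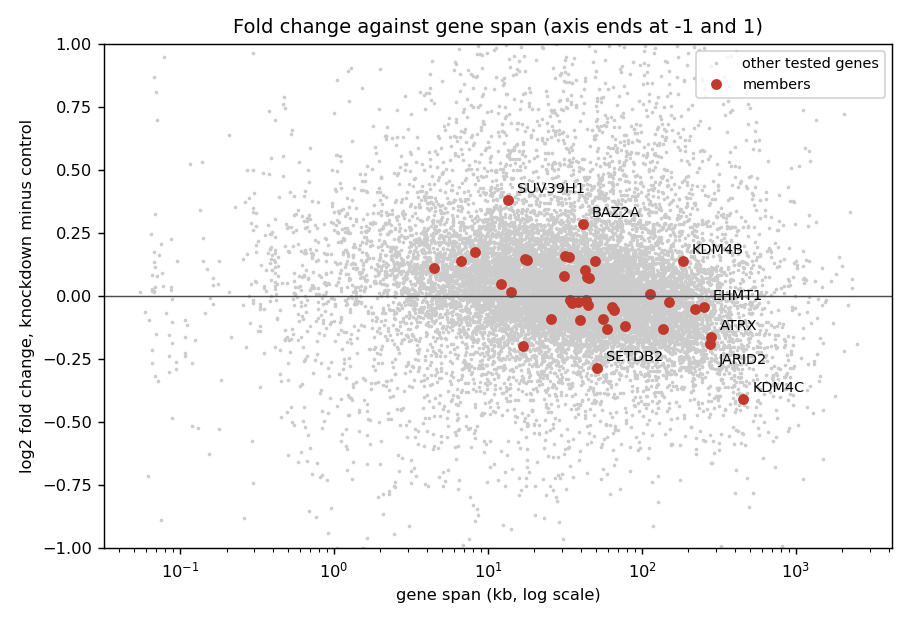
Log2 fold change (y axis, ALR knockdown minus control) against gene span (x axis, kb, log scale) for the 39 tested members (red) and the other tested genes with an annotated span (grey). The axis ends at -1 and 1, which leaves out 159 grey genes, and the widest member, KDM4C, is also the lowest.

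Other genes of the same pathways were read from lists of related factors. Of 20 tested further HUSH and H3K9 methylation factors, 1 fell past the threshold, where 0.786% of all tested genes did. This was CDYL2, a chromodomain corepressor. CDYL2 had 24.5, 26.4 and 30.2 CPM in knockdown and 37.2, 36.97 and 42.0 CPM in control. The groups were well apart, at a log2FC of -0.52 ± 0.09 (SE, edgeR adjusted p = 0.0222). The call was lost in the fits without knockdown library a (edgeR adjusted p = 0.0539), without knockdown library b (0.0868) and without control library a, b or c (0.115, 0.0971 and 0.182). Within that list 15 genes had a log2FC below 0 and the median was -0.04. At an unadjusted p under 0.05 there were 7 of the 20 (35.0%, against 14.3% of all genes), 1 higher and 6 lower.

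None of the 8 further H3K9 demethylases passed, with KDM7A (-0.26, edgeR adjusted p = 0.144) and JMJD1C (-0.20, edgeR adjusted p = 0.221) the lowest in p. Of the 10 PRC2 accessory subunits and H3K27 demethylases, 0 passed, and the median was -0.14. AEBP2, which helps PRC2 bind chromatin, was at 99.0, 94.96 and 113 CPM in knockdown and 120, 127 and 122 CPM in control (log2FC -0.27, edgeR adjusted p = 0.129). LCOR, whose locus also encodes a PRC2 cofactor, had a log2FC of -0.20 (edgeR adjusted p = 0.255). Of 25 PRC1 subunits, 15 were above 0 and 0 passed. BCORL1, a corepressor in variant PRC1, had 19.0, 22.2 and 19.5 CPM in knockdown and 15.9, 14.6 and 13.9 CPM in control (log2FC 0.45, edgeR adjusted p = 0.0509, past the threshold in 8 of 14 alternatives), and CBX2 had a log2FC of 0.19 (edgeR adjusted p = 0.2998). The 6 genes of H3.3 and the HIRA complex had a median of 0.06, with 0 past the threshold.

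Germline genes, which these systems are known to keep silent in somatic cells, were read in the same way. Of 24 germline genes, 14 had enough counts to be tested, and 1 fell past the threshold, where 0.786% of all tested genes did. This was DAZL, an RNA-binding protein of germ cells. It was also the 1 gene of the list at an unadjusted p under 0.05 (7.14%, against 14.3% of all genes). DAZL had 10.5, 9.17 and 11.0 CPM in knockdown and 14.9, 17.8 and 16.8 CPM in control. No knockdown library reached the lowest control, and the log2FC was -0.69 ± 0.11 (SE, edgeR adjusted p = 0.0120). It passed in 10 of 14 alternatives and was lost without knockdown library b (edgeR adjusted p = 0.0547) and without control library a, b or c (0.0636, 0.0973 and 0.115). The median over the tested germline genes was 0.245, with 10 of 14 above 0, and 0.05 with 9 of 14 above 0 without knockdown library a. The summed level of the list was 62.65, 47.2 and 50.02 CPM in knockdown and 50.6, 54.2 and 55.8 CPM in control, so that library a was the highest and the other 2 knockdown libraries were below every control. This sum includes DAZL, whereas most other tested genes of the list had a log2FC above 0.

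A further list held genes derived from transposable elements or transcribed from their repeats. It mixes retroviral genes and repeat-driven noncoding RNAs with the Ty3-type gene PEG10, the LINE-1 derived L1TD1 and the transposase gene PGBD5, and it is not a list of silent genes. Of its 25 genes 14 were tested, with a median of 0.09 (0.05 without knockdown library a) and 0 past the threshold. LINC-ROR, a noncoding RNA started in a retroviral repeat, had 13.9, 12.2 and 14.8 CPM in knockdown and 12.5, 9.60 and 11.0 CPM in control. These overlapped (log2FC 0.30, edgeR adjusted p = 0.285). ERVH48-1, an envelope-derived gene, had 194 to 209 CPM in knockdown and 215 to 227 CPM in control libraries (log2FC -0.14, edgeR adjusted p = 0.331). Of 39 developmental genes known as polycomb targets, 13 were tested and 0 passed, with a median of -0.08 (-0.17 without knockdown library a). EOMES, the lowest in p, had 10 to 16 counts in knockdown and 4 to 9 counts in control libraries, so the size of its difference is poorly determined at this depth. Their summed level was 10.3 to 18.65 CPM in knockdown and 12.0 to 13.9 CPM in control libraries, with knockdown library a the highest.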

How the data were processed

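The authors deposited raw read counts per gene symbol, 1 column per library, which were used as deposited. The submitters' processing notes name Trimmomatic 0.39, STAR 2.7.8a, featureCounts, Subread 2.14.2 and the build hg38. The annotation, the strand setting and the handling of reads with several alignments are not given in the sources used here. Of the table's rows, 32663 were matched to GENCODE release 29 (GRCh38) for identifiers, positions and spans.

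Differential expression was tested over all genes kept by filterByExpr with edgeR 4.0.16 (R 4.3.3): TMM scaling, the quasi-likelihood test with the group as its only term, two-sided, Benjamini-Hochberg adjusted over 19721 genes, threshold 0.05. Intervals come from the F statistic. The common biological coefficient of variation was 0.103. Log2 ratios were compared by exact permutation (SciPy 1.17.1). The procedure was tested on simulated data.

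Alternatives were DESeq2 1.42.0, 3 scalings, 2 filters, the replicate letter as a block and each library left out. Removal of the trend on gene span (natural spline, 5 degrees of freedom, 15893 genes), 3 of the 4 ratios and list medians without knockdown library a were added after the data had been seen. The members and lists were chosen with earlier results of these data known. Values in every library are given for members at an unadjusted p under 0.05, for the member with the highest CPM of each other role and for EZH1 and EZH2, and, beyond that rule, for SUV39H1 and SMARCA5. The other members are also named, which goes beyond the rule written for them (range and counts). From each list of related factors, germline genes, transposable element genes and polycomb targets, genes past the threshold were named. Where a list had none, at most 2 with the smallest unadjusted p were named, if under 0.05. Genes of the cell state, fibroblast and proliferation lists were named without this rule. List sums are CPM of the total count, without TMM.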

Additional observations from a re-analysis of the deposited data

How the results depend on the processing

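The number of members past the adjusted threshold was 0 with all libraries and TMM scaling, 2 under DESeq2's Wald test, 2 with no low-count filter and 1 with the replicate block, and it ran from 0 to 4 over the fits that left out 1 library. It was 0 in the other alternatives. The number at an unadjusted p under 0.05 was 5, with 8 under library size alone, 3 with the span trend removed and 3 to 12 over the fits that left out 1 library. The median log2 fold change of the members was 0.012 under library size alone and -0.039 to 0.023 over those fits. Over all tested genes the median was 0.02 in the main fit, 0.047 under library size alone and -0.001 to 0.027 over those fits. For these shifts, the cause was not tested. The number of intervals within 1.5-fold was 36 to 38 throughout. Among members with values in every library, the log2 fold change of SMCHD1 turned to 0.002 under library size alone, and over the fits that left out 1 library it ran from -0.059 to 0.023 for SMCHD1, from -0.059 to 0.061 for HELLS and from -0.099 to 0.017 for EZH1. KDM4C, SETDB2, BAZ2A, ATRX, CBX1, TRIM28, PPHLN1, KMT5B, JARID2, CHAF1A and EZH2 kept their direction in all 14 alternatives. Whether libraries with the same letter were paired is not given in the labels, and the main fit did not pair them. Their deviations from the group means correlated at 0.001, 0.113 and -0.03 in a, b and c, which cannot settle it. The fit with the letter as a block called 1.99% of all genes, against 0.786% in the main fit. With the difference taken within letters (replicate block), the difference of the EZH1 to EZH2 log2 ratio was 0.09. Depth limits SUV39H1 and LRIF1 most.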
